A study of Homo sapiens with 6 samples.

Results

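The genes described here are 41 interferon and JAK-STAT response genes, chosen by gene name with earlier results of these data known, though the list uses no measured value as a criterion, out of 58733 named entries in a count table of MDA-MB-231 cells. All 41 were found in the table. MDA-MB-231 is an established human cell line from triple-negative breast cancer, and its cells look mesenchymal. The cells were treated for 72 h with 2 µM Azeliragon, a small-molecule inhibitor of the receptor RAGE (3 libraries, lettered a, b and c), or with the vehicle DMSO (3 libraries, lettered a, b and c), and polyadenylated RNA was sequenced. Both groups grew in DMEM-F12 with serum and glutamine, and no interferon is named among the agents. By its title the series is about RAGE acting through SNAIL on epithelial-mesenchymal plasticity, and these libraries compare cells given the inhibitor at this dose with cells given vehicle. Whether libraries a, b and c were separate cultures is not stated in the labels, so p-values reflect spread that may be technical only.

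Interferons are secreted cytokines that bind receptors paired with the kinases JAK1, JAK2 and TYK2. The kinases phosphorylate STAT proteins, which enter the nucleus and switch on antiviral genes, among them inhibitors that end the signal. Type I interferons act mainly through a complex that contains STAT2 and IRF9 on a promoter element called ISRE, and interferon gamma mainly through an element called GAS. Many of these genes are also expressed at a low level in tumour cells with no added interferon.

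The promoters of 5 members are shown because these genes carry the ISRE core and yet did not all give the same test result. IFITM3, GBP1 and BST2 were lower with Azeliragon, HERC5 was higher, and ISG15 did not pass the test. HERC5 passed narrowly (edgeR adjusted p = 0.0493), and in only 1 of the 6 sets with a single library left out. Each run gives the 150 bases before the RefSeq transcription start, read 5′ to 3′ on the strand of the gene (GRCh38.p14). Capitals mark matches to the core GAAANNGAAA or its reverse complement TTTCNNTTTC, where N is any base. In BST2, HERC5 and ISG15 a pair of matches overlaps.
IFITM3, minus strand, chr11:320861-321010: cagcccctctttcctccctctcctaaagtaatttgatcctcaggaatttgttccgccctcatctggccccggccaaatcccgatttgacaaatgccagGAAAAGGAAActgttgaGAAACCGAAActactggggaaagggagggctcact
GBP1, minus strand, chr1:89065209-89065358: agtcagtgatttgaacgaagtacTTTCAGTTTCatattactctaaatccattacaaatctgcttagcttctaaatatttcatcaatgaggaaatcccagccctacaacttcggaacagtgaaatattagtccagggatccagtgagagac
BST2, minus strand, chr19:17405631-17405780: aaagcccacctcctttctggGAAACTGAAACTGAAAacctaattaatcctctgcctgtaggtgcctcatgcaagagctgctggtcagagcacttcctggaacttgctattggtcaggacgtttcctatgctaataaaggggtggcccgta
HERC5, plus strand, chr4:88456969-88457118: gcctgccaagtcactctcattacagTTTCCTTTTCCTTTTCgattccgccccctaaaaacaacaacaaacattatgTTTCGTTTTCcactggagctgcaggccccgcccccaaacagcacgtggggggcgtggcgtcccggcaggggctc
ISG15, plus strand, chr1:1013347-1013496: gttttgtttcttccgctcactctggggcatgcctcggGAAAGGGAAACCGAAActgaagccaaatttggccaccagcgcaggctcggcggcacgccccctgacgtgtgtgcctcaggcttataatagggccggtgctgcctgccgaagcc

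Windows running from 250 bases before to 50 bases after the start were given for 33 of the 41 members, and both strands were searched. The ISRE core was found in 20 of these 33 members (60.6%), against 1195 of 27305 genes with such a window (4.38%). It was present in 6 of 7 members that were lower with Azeliragon and in 12 of 23 that did not pass. Of the 2 that were higher, HERC5 held the core and DDX58 did not. The core thus occurred both in members that were lower and in members that were not, and the difference in share was not tested. Of the members that were lower, GBP2, IFITM2, OAS2 and OASL had no window and are not in these counts. The GAS core TTCNNNGAA, whose reverse complement has the same form, was found in 8 of 33 members (24.2%), against 2560 of the 27305 genes (9.38%). BST2, IFI27 and PSMB8 were the members lower with Azeliragon that held both cores. A match is a run of letters and was not tested for binding.

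Library totals lay between 41455979 and 44313584 counts, so that a single read corresponded to 0.0222 to 0.0241 CPM (counts relative to the library total, scaled by TMM here and throughout). On the first principal component of all genes the Azeliragon libraries had scores of -23.0 to -19.0, DMSO b and c had scores of 30.1 and 33.7, and DMSO a was in between at -0.23. Counts of called genes are therefore also given without DMSO a. The line's label was checked against its markers: VIM, CD44, KRT8 and KRT18 were abundant, with mean levels from 287 to 1830 CPM with Azeliragon and from 332 to 2040 CPM in DMSO. Of the epithelial markers CDH1 had 1 read with Azeliragon and 0 in DMSO, whereas EPCAM averaged 8.14 CPM with Azeliragon and 8.97 CPM in DMSO. The mesenchymal marker CDH2 was near absent, with 4, 14 and 10 reads with Azeliragon and 14, 5 and 20 in DMSO. Among the receptors that define the tumour class, PGR had 0 reads in all 6 libraries, ESR1 had 10, 9 and 14 reads with Azeliragon and 0, 0 and 5 in DMSO, and ERBB2 averaged 110 CPM with Azeliragon and 109 CPM in DMSO. Of 10 immune cell markers, 8 had at most 8 reads in any library, PTPRC among them, and CD3E, CD2 and MS4A1 had 0 in all 6. Between 5 and 7 of the 10 were at 0 in each library. The summed level of the 10 was 2.35 to 2.75 CPM with Azeliragon and 4.92 to 5.93 CPM in DMSO. Most of this was the receptor gene CSF1R, at 1.47 ± 0.36 CPM with Azeliragon and 3.83 ± 0.45 CPM in DMSO (SD, n = 3 each; edgeR adjusted p = 0.00185). Any part of these 10 genes in the results below was not tested.

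Of the 41 members, 39 had enough reads to be tested, and 11 fell, 2 rose and 26 did not pass (edgeR quasi-likelihood test, adjusted p under 0.05 with Benjamini-Hochberg adjustment over 16081 genes). Over all genes tested 6.27% passed in either direction. The falls made up 28.2% of the members tested, against 3.53% of all genes tested. The rises made up 5.13% of the members tested, against 2.75% of all genes. The genes that fell were GBP2, PSMB9, GBP1, IFI27, IFITM3, OAS2, SOCS1, BST2, OASL, IFITM2 and PSMB8, by 1.24-fold to 2.05-fold with a median of 1.47-fold. Those that rose were DDX58, by 1.37-fold, and HERC5, by 1.26-fold. The median log2 fold change was -0.21 over the 39 members and -0.004 over all genes tested. In RNA from whole cultures, less RNA per cell and fewer expressing cells cannot be told apart.

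Without DMSO a, 14 members were lower (35.9% of 39, against 10.8% of all genes) and 5 were higher (12.8%, against 12.9% of all genes). All 13 members called with 6 libraries were also called without it. IFI35, IFITM1, IRF7, IFIT3, OAS3 and JAK1 were called in addition. Leaving out any other single library gave 5 to 7 of 39 members lower and 0 or 1 higher. Counts over all genes were also smaller in these sets, at 270 to 468 lower and 154 to 351 higher of 16546 to 16601 tested. With 6 libraries they were 567 and 442 of 16081. Members lower numbered 7 without DMSO b or Azeliragon b, 6 without DMSO c or Azeliragon c and 5 without Azeliragon a. GBP2, PSMB9, GBP1, IFI27 and IFITM3 passed in every set of 5 libraries.

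**Figure D1:**
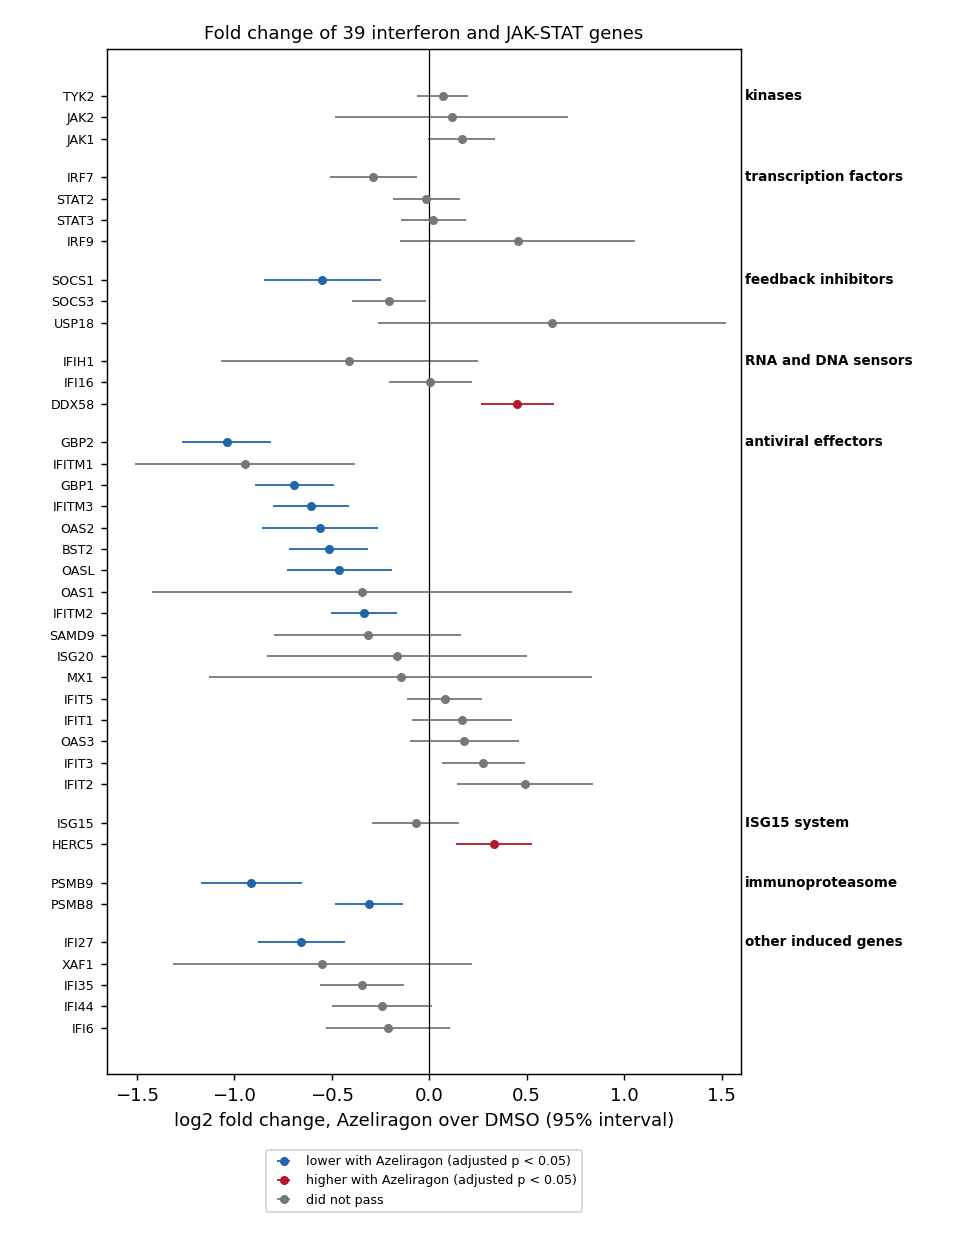
Log2 fold change of the 39 members tested, Azeliragon over DMSO, with 95% intervals from the edgeR fit, grouped by role; blue marks members lower with Azeliragon, red those higher and grey those that did not pass. The 11 blue points lie among the feedback inhibitors, antiviral effectors, immunoproteasome subunits and other induced genes, and no kinase or transcription factor is coloured.

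**Figure D2:**
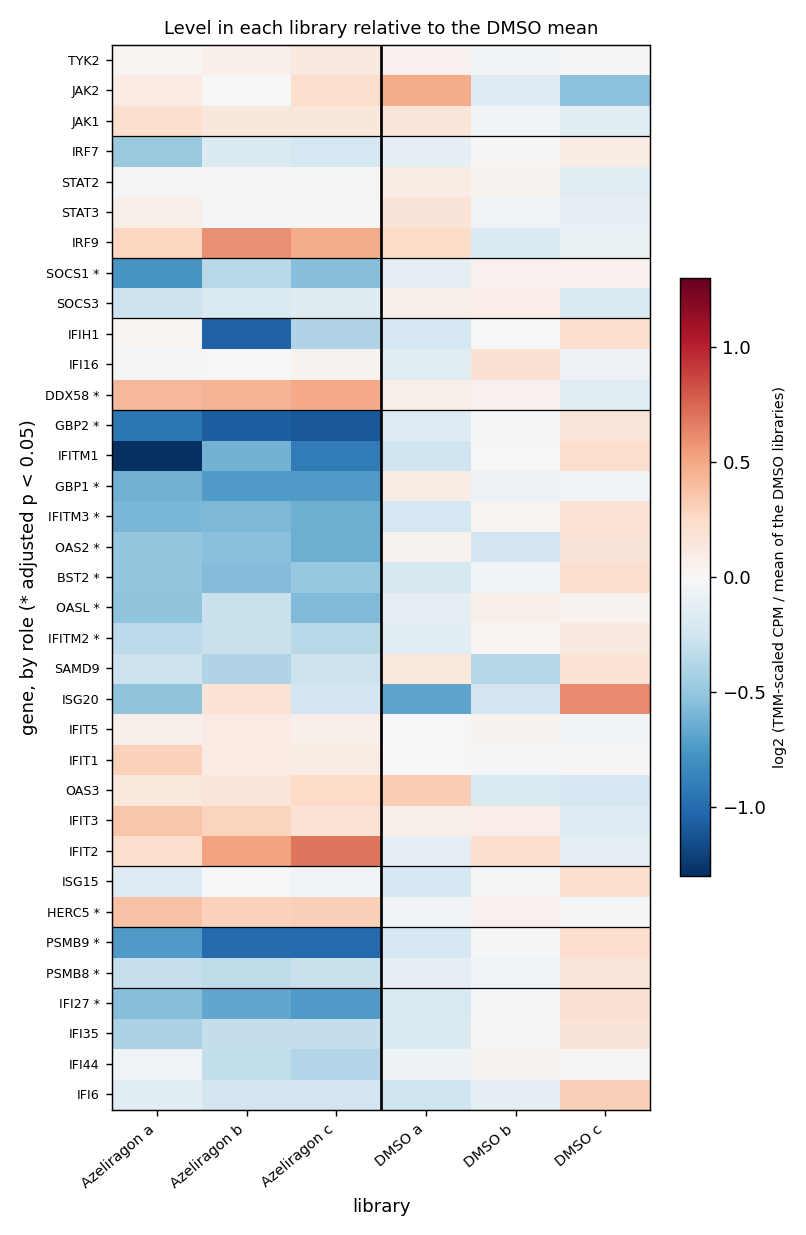
Level of 35 members with a mean of at least 1 CPM in each library, as log2 of the TMM-scaled CPM over the mean of the DMSO libraries; columns are the libraries, rows are the genes by role, and an asterisk marks an adjusted p under 0.05. In the 11 rows of genes that fell every Azeliragon column is lower than every DMSO column, and DMSO a is the lowest DMSO column in 9 of them.

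The kinases that start the signal did not pass. JAK1, which serves the receptors of both interferon types and of the IL-6 family, stood at 98.8, 95 and 94.5 CPM with Azeliragon and at 95.6, 83.5 and 77.7 CPM in DMSO (log2 fold change 0.17, 95% CI -0.005 to 0.34; edgeR adjusted p = 0.259). The groups overlapped through DMSO a, and without that library JAK1 passed as higher (log2 fold change 0.25; edgeR adjusted p = 0.00174). TYK2, a kinase of the type I interferon receptor, was measured at 191, 195 and 202 CPM with Azeliragon and at 194, 182 and 183 CPM in DMSO (log2 fold change 0.07, 95% CI -0.06 to 0.20; edgeR adjusted p = 0.557). JAK2, a kinase of the interferon gamma receptor, was far less abundant, at 1.63 ± 0.13 CPM with Azeliragon and 1.5 ± 0.55 CPM in DMSO (SD, n = 3 each). RAVER2 overlaps JAK1 on the opposite strand, and reads of the pair cannot be told apart without strand.

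None of the 4 transcription factors passed. STAT3, which transmits signals of the IL-6 family, had 184, 173 and 177 CPM with Azeliragon and 196, 168 and 162 CPM in DMSO (log2 fold change 0.02, 95% CI -0.14 to 0.19; edgeR adjusted p = 0.908). STAT2, a subunit of the ISRE-binding complex, had 44.2, 44.5 and 45.5 CPM with Azeliragon and 48.2, 46.6 and 40.7 CPM in DMSO (log2 fold change -0.01, 95% CI -0.19 to 0.16; edgeR adjusted p = 0.950). For both genes the DMSO libraries spanned the Azeliragon libraries, with DMSO a the highest. IRF9, the DNA-binding subunit of the same complex, was at 1.05 to 1.31 CPM with Azeliragon and 0.765 to 1.02 CPM in DMSO, and did not pass (log2 fold change 0.45; edgeR adjusted p = 0.391). IRF7, which amplifies type I interferon production, was at 14.5 to 17.8 CPM with Azeliragon and 18.5 to 21.6 CPM in DMSO. It did not pass with 6 libraries (log2 fold change -0.29; edgeR adjusted p = 0.136) and passed as lower without DMSO a (edgeR adjusted p = 0.0127).

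Among the feedback inhibitors SOCS1 fell. SOCS1, a direct inhibitor of JAK kinases, lies on chromosome 16, minus strand, from 11254405 to 11256200 (GRCh38, GENCODE 29). It had 4.05, 5.37 and 4.70 CPM with Azeliragon, from 174, 234 and 195 reads, against 6.36, 7.14 and 7.14 CPM in DMSO, from 287, 308 and 308 reads. Every Azeliragon library was below every DMSO library, and the fall was 1.46-fold (log2 fold change -0.55, SE 0.14; edgeR adjusted p = 0.0349). This call was lost without Azeliragon a, Azeliragon c, DMSO b or DMSO c (edgeR adjusted p up to 0.173). SOCS3, which restrains IL-6 family signalling, was at 32.9, 34.8 and 35.7 CPM with Azeliragon and at 41.9, 42.0 and 35.2 CPM in DMSO, where DMSO c lay within the Azeliragon range (log2 fold change -0.20; edgeR adjusted p = 0.208). USP18, which removes ISG15 from proteins and blocks the type I receptor, had only 19, 27 and 19 reads with Azeliragon and 18, 11 and 14 reads in DMSO, and did not pass (log2 fold change 0.63, 95% CI -0.26 to 1.52; edgeR adjusted p = 0.429).

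Of the sensors of foreign nucleic acid, DDX58 rose. DDX58 encodes RIG-I, which detects viral RNA in the cytoplasm, and lies on chromosome 9, minus strand, from 32455705 to 32526324. It had 30.3, 30.7 and 31.8 CPM with Azeliragon against 23.9, 23.5 and 20.4 CPM in DMSO. The lowest Azeliragon library was above the highest DMSO library, and the rise was 1.37-fold (log2 fold change 0.45, SE 0.09; edgeR adjusted p = 0.00763). The call was lost without Azeliragon c (edgeR adjusted p = 0.0526). IFI16, a sensor of DNA, was at 23.4, 23.7 and 24.4 CPM with Azeliragon and at 21.5, 27.2 and 22.5 CPM in DMSO, where the DMSO libraries spanned those of Azeliragon (log2 fold change 0.01; edgeR adjusted p = 0.984). IFIH1, the related sensor MDA5, was near 1 CPM in both groups, at 1.47, 0.688 and 1.09 CPM with Azeliragon and 1.22, 1.44 and 1.65 CPM in DMSO, and did not pass (log2 fold change -0.41; edgeR adjusted p = 0.491).

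Of 17 antiviral effectors tested 7 fell and none passed as higher, against 3.53% and 2.75% of all genes. Without DMSO a 8 were lower and 2 higher, against 10.8% and 12.9% of all genes. GBP2 and GBP1 encode guanylate-binding proteins, large GTPases that attack intracellular pathogens and are classic targets of interferon gamma. GBP2, on chromosome 1, minus strand, from 89106132 to 89150456, had 11.1, 10.1 and 9.91 CPM with Azeliragon against 19, 21.1 and 23.8 CPM in DMSO. This was the largest fall among the 11 members, 2.05-fold (log2 fold change -1.04, SE 0.11; edgeR adjusted p = 0.000120). GBP1 had 11.7, 10.8 and 10.8 CPM with Azeliragon against 19.2, 17.1 and 17.6 CPM in DMSO, a fall of 1.61-fold (log2 fold change -0.69, SE 0.09; edgeR adjusted p = 0.000888). In GBP1 the library DMSO a was the highest of the DMSO libraries, and in GBP2 it was the lowest. GBP7 overlaps GBP2 on the same strand, so some reads may be shared.

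In the IFITM family, small membrane proteins that block the entry of viruses, IFITM3 and IFITM2 fell and IFITM1 did not pass. IFITM3, on chromosome 11, minus strand, from 319669 to 327537, had the highest level per length of all 41 members, with 95 CPM per kb of merged exons with Azeliragon and 145 CPM per kb in DMSO. Its level was 129, 130 and 126 CPM with Azeliragon against 166, 200 and 220 CPM in DMSO. The Azeliragon libraries lay close together (SD 1.99 CPM), the DMSO libraries were more spread (SD 27.1 CPM), and the groups did not overlap. The fall was 1.52-fold (log2 fold change -0.60, SE 0.09; edgeR adjusted p = 0.00172). IFITM2 had 49.6, 51.3 and 49.0 CPM with Azeliragon against 56.9, 63.8 and 68.0 CPM in DMSO, a fall of 1.26-fold (log2 fold change -0.33, SE 0.08; edgeR adjusted p = 0.0254). The IFITM2 call held without DMSO a but with no other library left out (edgeR adjusted p up to 0.147). IFITM1 was low, with 35, 62 and 48 reads with Azeliragon against 82, 94 and 110 reads in DMSO, and stood just outside the threshold (log2 fold change -0.94, SE 0.26; edgeR adjusted p = 0.0521). IFITM1 passed as lower with DESeq2 (adjusted p = 0.0384) and with a stricter filter on low counts (edgeR adjusted p = 0.0448). It did not pass with RLE size factors (edgeR adjusted p = 0.0525), library totals (edgeR adjusted p = 0.0552) or limma-voom (adjusted p = 0.0534). The genes are closely related in sequence and exons of IFITM1 and IFITM2 overlap, so their counts are uncertain. AC136475.5 overlaps IFITM3 on the opposite strand.

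BST2, or tetherin, holds budding virus particles at the cell surface and lies on chromosome 19, minus strand, from 17402939 to 17405648. It had 79.0, 76 and 79.5 CPM with Azeliragon against 96.8, 109 and 129 CPM in DMSO, without overlap. The fall was 1.43-fold (log2 fold change -0.51, SE 0.09; edgeR adjusted p = 0.00608), and the call was lost without Azeliragon a (edgeR adjusted p = 0.0506). In the OAS family, whose enzymes make the 2'-5' oligoadenylates that activate RNase L, the members differed. OAS2 had 5.09, 4.95 and 4.63 CPM with Azeliragon against 7.44, 6.07 and 8.09 CPM in DMSO, a fall of 1.47-fold (log2 fold change -0.56, SE 0.14; edgeR adjusted p = 0.0317). OASL, a relative that supports RIG-I signalling, had 5.58, 6.56 and 5.40 CPM with Azeliragon against 7.38, 8.46 and 8.30 CPM in DMSO, a fall of 1.37-fold (log2 fold change -0.46, SE 0.12; edgeR adjusted p = 0.0493). Neither held when libraries were left out: OAS2 passed only without DMSO a or DMSO b and OASL only without DMSO a (edgeR adjusted p up to 0.144 and 0.216 otherwise). OASL also missed the threshold in the edgeR test with RLE size factors (adjusted p = 0.0514), with library totals (0.0535) and with the trend on transcript length and GC content removed (0.0579), and with limma-voom (0.0567). OAS3 was at 32.4, 32.9 and 34.9 CPM with Azeliragon and 37.0, 25.9 and 25.3 CPM in DMSO, where DMSO a lay above the Azeliragon libraries and DMSO b and c below them (log2 fold change 0.18; edgeR adjusted p = 0.468). Without DMSO a it passed as higher (log2 fold change 0.38; edgeR adjusted p = 0.000924). OAS1 had 6 to 16 reads with Azeliragon and 11 to 21 in DMSO, too few for a narrow interval (log2 fold change -0.35, 95% CI -1.42 to 0.73).

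The IFIT genes, a cluster on chromosome 10 whose products bind viral RNA, did not pass in either direction with 6 libraries. IFIT3, the most abundant of them per length, had 20.8, 19.8 and 18.5 CPM with Azeliragon against 17.1, 17.2 and 14.4 CPM in DMSO (log2 fold change 0.28, SE 0.10; edgeR adjusted p = 0.125), and it passed as higher without DMSO a (log2 fold change 0.32; edgeR adjusted p = 0.0220). IFIT2 was at 4.79, 5.92 and 6.66 CPM with Azeliragon and 3.77, 4.77 and 3.80 CPM in DMSO (log2 fold change 0.49, SE 0.16; edgeR adjusted p = 0.102), and it passed as higher with no filter on low counts (edgeR adjusted p = 0.0319). For IFIT1 and IFIT5 the log2 fold changes were 0.17 and 0.08. In all 4 genes every Azeliragon library was above every DMSO library, by a narrow margin in IFIT2, IFIT5 and IFIT1. Such separation towards higher values was seen in 8 of the 39 members (20.5%) and in 12.1% of all genes tested, and separation towards lower values in 15 members (38.5%) and in 13.2% of all genes. LIPA overlaps IFIT2 on the opposite strand. The 3 remaining effectors that were tested and did not pass, ISG20, SAMD9 and MX1, had overlapping groups and log2 fold changes between -0.32 and -0.14. MX2 could not be tested, with 2, 4 and 2 reads with Azeliragon and 6, 7 and 5 reads in DMSO.

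ISG15 is a ubiquitin-like protein that is attached to other proteins after interferon, and HERC5 is the ligase that attaches it. HERC5, on chromosome 4, plus strand, from 88457117 to 88506163, had 15.5, 14.6 and 14.8 CPM with Azeliragon against 11.5, 12.4 and 11.7 CPM in DMSO. The groups did not overlap and the rise was 1.26-fold (log2 fold change 0.33, SE 0.09; edgeR adjusted p = 0.0493), but of the 6 sets of 5 libraries the call held only in the set without DMSO a (edgeR adjusted p up to 0.192). It was also lost with library totals (edgeR adjusted p = 0.0592), with no filter on low counts (edgeR adjusted p = 0.0567) and with limma-voom (adjusted p = 0.0558). ISG15 itself was at 41.6, 46.5 and 45.3 CPM with Azeliragon and at 39.9, 46.0 and 54.0 CPM in DMSO, where the DMSO libraries spanned those of Azeliragon (log2 fold change -0.07, 95% CI -0.29 to 0.15; edgeR adjusted p = 0.759). AL645608.3 overlaps ISG15 on the opposite strand.

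The immunoproteasome subunits fell together. PSMB8 and PSMB9 replace standard proteasome subunits in cells exposed to interferon gamma and favour peptides that fit HLA class I. PSMB9, on chromosome 6, plus strand, from 32844136 to 32859585, had 19.5, 16.3 and 16.2 CPM with Azeliragon against 27.9, 32 and 37.9 CPM in DMSO. The groups were well apart, and the fall was 1.88-fold (log2 fold change -0.91, SE 0.12; edgeR adjusted p = 0.000749). PSMB8 was at 61.3, 60.0 and 61.8 CPM with Azeliragon against 69.4, 72.7 and 84.4 CPM in DMSO, a smaller fall of 1.24-fold (log2 fold change -0.31, SE 0.08; edgeR adjusted p = 0.0405). The PSMB8 call held without DMSO a but with no other library left out (edgeR adjusted p up to 0.179). Exons of the pair overlap on opposite strands, and PSMB8-AS1 overlaps both, so the division of reads among them is uncertain.

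Among the other induced genes IFI27 fell. IFI27, a mitochondrial and nuclear membrane protein strongly induced by type I interferon, lies on chromosome 14, plus strand, from 94104836 to 94116698. It had 27.4, 25.1 and 24.1 CPM with Azeliragon against 35.0, 39.7 and 46.0 CPM in DMSO, with no overlap, and the fall was 1.57-fold (log2 fold change -0.66, SE 0.10; edgeR adjusted p = 0.00254). IFI35 had 20.5, 22.0 and 21.9 CPM with Azeliragon against 23.9, 27.4 and 30.5 CPM in DMSO and stood just outside the threshold although the groups did not overlap (log2 fold change -0.34, SE 0.10; edgeR adjusted p = 0.0631). IFI35 passed as lower with DESeq2 (adjusted p = 0.0371) but not with RLE size factors (edgeR adjusted p = 0.0685), library totals (edgeR adjusted p = 0.0592) or limma-voom (adjusted p = 0.0708). IFI44 was at 9.17, 7.57 and 7.28 CPM with Azeliragon and 9.04, 9.78 and 9.57 CPM in DMSO, where Azeliragon a lay within the DMSO range (log2 fold change -0.24; edgeR adjusted p = 0.276). IFI6 and XAF1 did not pass either, with log2 fold changes of -0.21 and -0.55. IFI44L could not be tested, with 7, 6 and 1 reads with Azeliragon and 6, 25 and 9 reads in DMSO.

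**Figure D3:**
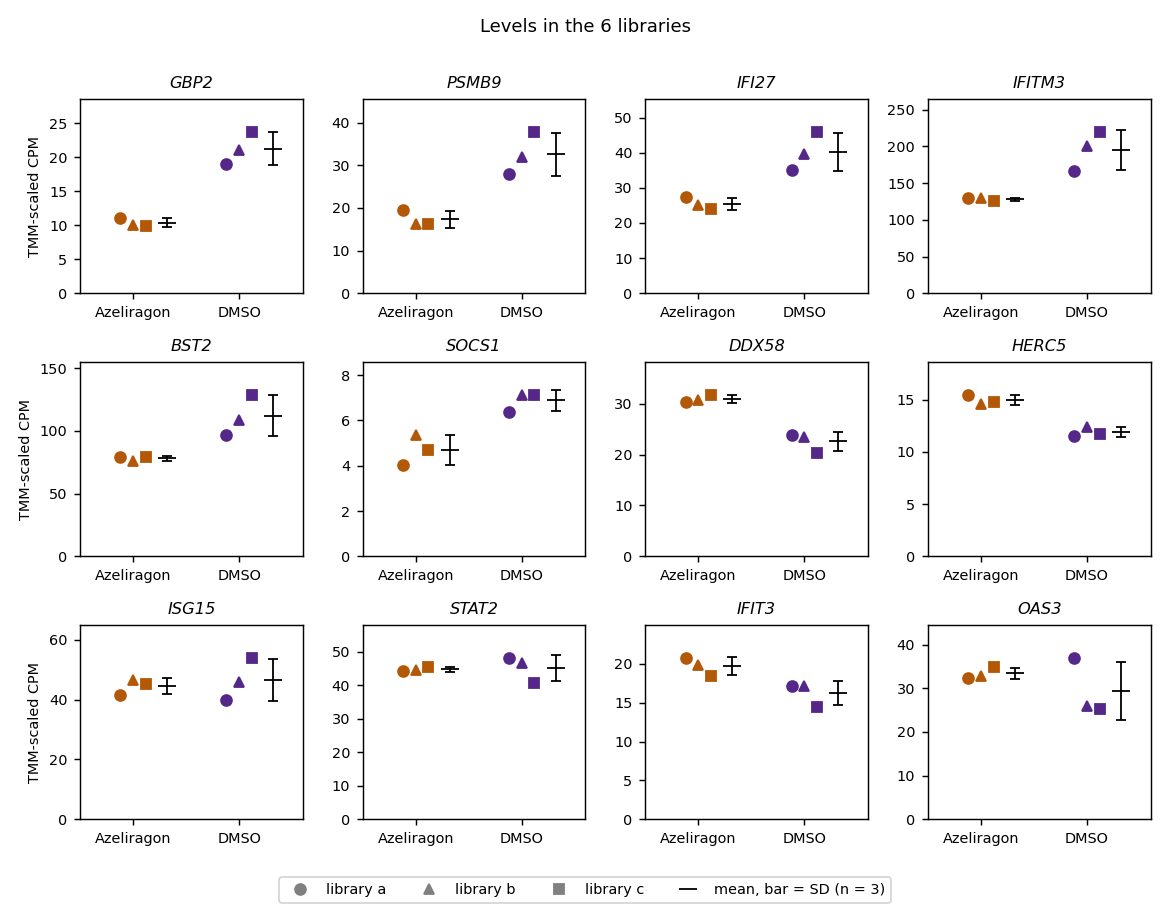
TMM-scaled CPM of 12 members in each library, with Azeliragon on the left and DMSO on the right of each panel; marker shapes are the libraries a, b and c, and the bar beside them is the mean with its SD (n = 3). The groups separate downwards in GBP2, PSMB9, IFI27, IFITM3, BST2 and SOCS1 and upwards in DDX58, HERC5 and IFIT3, and overlap in ISG15, STAT2 and OAS3.

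DMSO a was the lowest DMSO library in 9 of the 11 genes that fell and the highest in 1. Its place among the DMSO libraries was not counted over all genes. Across these 11 genes the median coefficient of variation was 4.82% among Azeliragon libraries and 11.3% among DMSO libraries, and the spread was larger in DMSO for 9 of them. The wider spread in DMSO was not particular to these genes. By another measure, the common biological coefficient of variation of all genes tested (edgeR), it was 5.64% among Azeliragon libraries and 12.5% among DMSO libraries. Levels per length covered a wide range. In CPM per kb of merged exons, 10 members reached 10 with Azeliragon and 11 did in DMSO, led by IFITM3, BST2 and ISG15 in both groups, whereas 12 members were under 1 with Azeliragon and 11 in DMSO. MX1, MX2, OAS1 and USP18, which respond strongly to interferon in many cells, were among these low members.

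**Figure D4:**
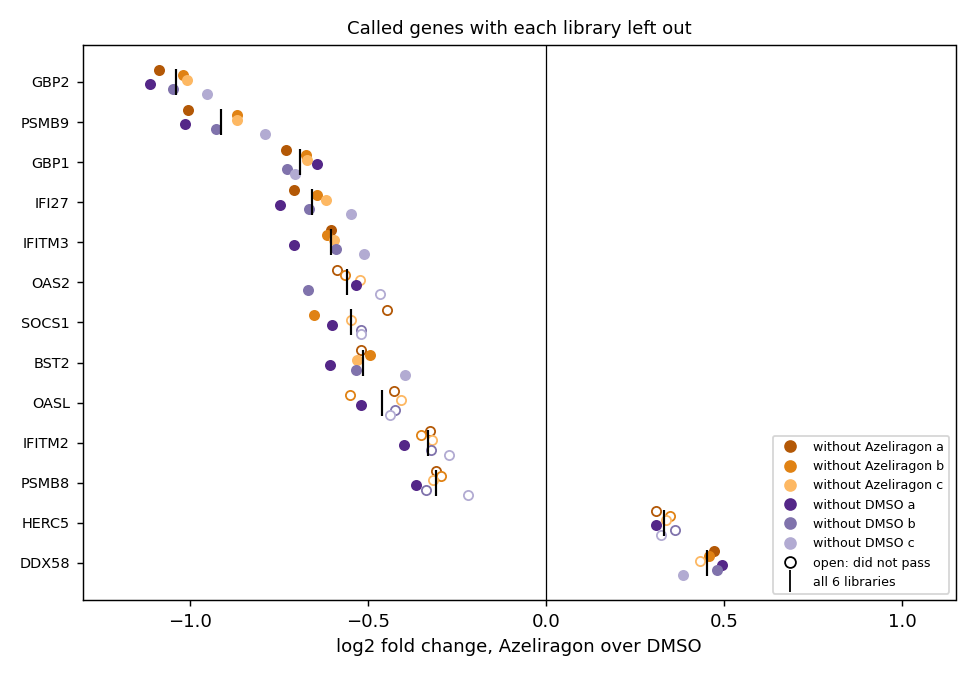
Log2 fold change, Azeliragon over DMSO, of the 13 called members with each library left out in turn; filled points passed at an adjusted p under 0.05, open points did not, and the black bar is the value with 6 libraries. No point crosses 0, all points of GBP2, PSMB9, GBP1, IFI27 and IFITM3 are filled, and those of HERC5, PSMB8, IFITM2 and OASL are filled only without DMSO a.

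Other genes of the pathway were read from 8 lists with 115 genes in all, of which 90 could be tested. Of these 18 fell (20%, against 3.53% of all genes tested), 2 rose (2.22%, against 2.75% of all genes) and 70 did not pass, and their median log2 fold change was -0.16. Without DMSO a 26 were lower (28.9%, against 10.8% of all genes) and 19 higher (21.1%, against 12.9% of all genes). The 7 interferon ligand genes on the list were near absent, and no interferon alpha gene was on it. IFNB1, IFNE, IFNK, IFNG, IFNL2 and IFNL3 had 0 reads in all 6 libraries, which allows up to 0.0665 to 0.0723 CPM a library (3 reads, counting error only), and IFNL1 had 1 read, in Azeliragon a. None of 5 interferon receptor genes tested passed with 6 libraries. IFNGR2, a subunit of the interferon gamma receptor, came closest, with 35.3, 39.2 and 41.3 CPM with Azeliragon and 46.1, 46.5 and 47.4 CPM in DMSO (log2 fold change -0.27, SE 0.08; edgeR adjusted p = 0.0598). IFNGR2 passed as lower without DMSO a (log2 fold change -0.28; edgeR adjusted p = 0.00732), with no filter on low counts (edgeR adjusted p = 0.0480) and with DESeq2 (adjusted p = 0.0369). The type I receptor gene IFNAR1 was at 21.8 ± 1.0 CPM with Azeliragon and 22.7 ± 1.0 CPM in DMSO (SD, n = 3 each).

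Of 9 further JAK, STAT and IRF genes tested, IRF1 fell and STAT6 rose, against 3.53% lower and 2.75% higher over all genes. Without DMSO a 1 of the 9 was lower and 2 higher, against 10.8% and 12.9% of all genes. IRF1, a transcription factor induced by interferon gamma that drives immunoproteasome and GBP genes, had 32.5, 34.0 and 32.4 CPM with Azeliragon against 51.0, 50.3 and 56.4 CPM in DMSO. The groups were far apart and the fall was 1.6-fold (log2 fold change -0.67, SE 0.08; edgeR adjusted p = 0.000218), called in every set of 5 libraries. STAT6, which acts downstream of interleukin 4, had 173, 173 and 169 CPM with Azeliragon against 150, 137 and 143 CPM in DMSO, a rise of 1.2-fold (edgeR adjusted p = 0.0275) that was lost when DMSO b or any Azeliragon library was left out (edgeR adjusted p up to 0.179). On the opposite strand AC116366.3 and C5orf56 overlap IRF1, and LRP1 and NAB2 overlap STAT6.

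Among 6 cytokine genes of the IL-6 family tested, which signal through gp130 to STAT3, IL11 rose and IL6 fell. Over all genes 2.75% rose and 3.53% fell. Without DMSO a 1 of the 6 was lower and 3 higher, against 10.8% and 12.9% of all genes. IL11 had 59.5, 62.1 and 57.3 CPM with Azeliragon against 32.2, 30.6 and 37.2 CPM in DMSO, a rise of 1.79-fold (log2 fold change 0.84, SE 0.09; edgeR adjusted p = 0.000120). IL6 had 19.1, 16.0 and 17.1 CPM with Azeliragon against 22.3, 23.5 and 25.8 CPM in DMSO, a fall of 1.37-fold (log2 fold change -0.45, SE 0.10; edgeR adjusted p = 0.0148). Groups did not overlap for either gene. AC073072.1 and STEAP1B overlap IL6 on the opposite strand. The IL11 call held in every set of 5 libraries, and that of IL6 was lost without Azeliragon b, Azeliragon c or DMSO b (largest edgeR adjusted p 0.101). None of 4 receptor genes of this family tested passed, with IL11RA closest (log2 fold change -0.39; edgeR adjusted p = 0.141). Without DMSO a IL11RA passed as lower (log2 fold change -0.45; edgeR adjusted p = 0.0408), and OSMR (log2 fold change 0.35; edgeR adjusted p = 0.000156) and IL6ST, which encodes gp130 (log2 fold change 0.27; edgeR adjusted p = 0.0477), passed as higher. With the trend on transcript length and GC content also removed, IL11RA did not pass (edgeR adjusted p = 0.0683), and OSMR and IL6ST did. AL162231.3 and GALT overlap IL11RA on the same strand. On the opposite strand CCL27 overlaps IL11RA, RICTOR overlaps OSMR and AC008914.1 overlaps IL6ST.

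Of 14 further feedback inhibitors SOCS6 fell 1.33-fold (edgeR adjusted p = 0.0226) and 13 did not pass, and of 9 genes of sensor signalling tested the kinase gene IKBKE fell 1.37-fold (edgeR adjusted p = 0.00406) and 8 did not pass. Without DMSO a 1 of the feedback inhibitors was lower and 4 higher, and 1 of the sensor signalling genes was lower and 3 higher. Over all genes 3.53% were lower and 2.75% higher with 6 libraries, and 10.8% and 12.9% without DMSO a. The SOCS6 call was lost when DMSO b or any Azeliragon library was left out (edgeR adjusted p up to 0.125). Of 43 further interferon-induced genes tested, 14 fell, none passed as higher and 29 did not pass, against 3.53% lower and 2.75% higher over all genes. Without DMSO a 20 were lower and 5 higher, against 10.8% and 12.9% of all genes. Their median log2 fold change was -0.31. TNFSF10, the death ligand TRAIL, had 0.977, 1.22 and 0.989 CPM with Azeliragon against 3.32, 4.17 and 3.50 CPM in DMSO, a fall of 3.45-fold (log2 fold change -1.79, SE 0.20; edgeR adjusted p = 0.000218). PSMB10, the remaining catalytic subunit of the immunoproteasome, had 23.9, 23.9 and 24.4 CPM with Azeliragon against 34.1, 38.2 and 43.9 CPM in DMSO, a fall of 1.61-fold (log2 fold change -0.69, SE 0.10; edgeR adjusted p = 0.00110). APOL1 fell 1.54-fold (edgeR adjusted p = 0.00434), and GBP3, a relative of GBP1 and GBP2, fell 1.58-fold (edgeR adjusted p = 0.00500). Each of these 4 genes was called in every set of 5 libraries. The chemokine genes CXCL9, CXCL10 and CXCL11 and the antiviral genes RSAD2 and CMPK2 had at most 3 reads in any library and could not be tested.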

How the data were processed

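The authors deposited raw counts by gene name for the 6 libraries of polyadenylated RNA. Per the submitters' processing notes, GRCh38, featureCounts 1.5.0-p3, STAR 2.6.1d and limma are listed, with no role stated for any. Strand setting and multi-mapping rules are unknown here, which makes overlapping and near-identical genes uncertain. Of 58735 entries, 2 whose names had become numbers held 0 counts and were left out. DDX58 is also written RIGI.

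Low counts were removed by filterByExpr (edgeR 4.0.16, R 4.3.3), and TMM-scaled libraries were compared with glmQLFit and glmQLFTest, treatment being the only term. The code was tested on simulated data. No library was a copy of another within its group (chi-square per degree of freedom at least 4.6 between any pair). GENCODE 29 gave positions, overlaps and exon lengths, and RefSeq (GRCh38.p14) the promoters. Levels are TMM-scaled CPM. The members and gene lists were chosen with earlier results of these data known. Library values are given for each called member and for up to 2 abundant members per role that did not pass, and up to 4 called genes per other list are named. CSF1R, JAK2, IRF7, IRF9, IFITM1, IFIT2, OAS1, IFNAR1, OSMR, IL6ST, EPCAM, CDH2 and ESR1 were named after their values were seen. Some genes of the pathway are not reported here.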

Additional observations from a re-analysis of the deposited data

How the results depend on the processing

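Against 11 members lower and 2 higher with 6 libraries, leaving out each library gave 5 to 14 lower and 0 to 5 higher. The other pathway genes gave 7 to 26 lower and 1 to 19 higher (18 and 2 with 6 libraries), and all genes 270 to 1779 lower and 154 to 2137 higher (567 and 442). DESeq2, RLE size factors, library totals, limma-voom and both other filters on low counts gave 10 to 13 members lower. Over all genes the same settings gave 550 to 787 lower, of 12944 to 29132 tested. With no filter on low counts HERC5 was lost and IFIT2, IFI35 and IFITM1 were gained. IFI35 and IFITM1 were also gained with DESeq2, and IFITM1 with the stricter filter. OASL was lost with RLE size factors, library totals, limma-voom and the trend removed. Members higher numbered 1 with library totals or limma-voom, where 382 and 473 of all genes were higher. Other pathway genes higher numbered 4 with DESeq2, where 648 of all genes were. With no filter on low counts 898 genes were higher. With the replicate block on the letters a, b and c, 10 members were lower and 1 higher (OAS2, OASL and HERC5 were lost, with adjusted p of 0.0504, 0.0626 and 0.096, and IFITM1 was gained, with 0.0459), and it left the other counts within 1.5 times. Same-lettered libraries did not deviate together (correlations of 0.027, 0.022 and -0.044), so the letters were not taken as pairs. With each library's trend on transcript length and GC content removed 10 members were lower, beside 582 of 16081 genes. The same without DMSO a, added after seeing the data, gave 14 members lower and 6 higher of 39. It gave 29 other pathway genes lower and 15 higher of 90, and 1791 genes lower and 2209 higher of 16508. None of the 13 called members changed direction under any setting. Among members that did not pass, signs turned: with the trend removed ISG15 was at 0.002, IFI16 at -0.008 and STAT2 at 0.009, and without DMSO a as well IFI16 was at -0.11 and STAT2 at 0.057. With single libraries left out ISG15 ranged from -0.169 to 0.049, IFI16 from -0.06 to 0.11, STAT2 from -0.083 to 0.036 and STAT3 from -0.032 to 0.11. The weakly expressed ISG20 ranged from -0.42 to 0.28, MX1 from -0.66 to 0.17 and JAK2 from -0.09 to 0.45. The cause was not tested. Genes with few reads, such as MX1, OAS1 and USP18, could show only large changes at this depth.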
